A study of Mus musculus with 2197 samples.

Results

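Glucagon-expressing cells of the embryonic mouse pancreas at E14.5 (days of embryonic development) were picked out of 2 droplet libraries of whole, unsorted pancreas, in which each cell barcode carries counts of unique molecular identifiers (UMIs). A barcode was kept if it held at least 1000 detected genes and under 10% mitochondrial UMIs. It was called alpha-like if Gcg reached 100 UMIs per 10000 and exceeded Ins1 plus Ins2, with at least 1 UMI of the granule gene Chga and none of the leukocyte gene Ptprc. This rule found 149 of 10170 kept cells, 53 of 3406 in library 1 and 96 of 6764 in library 2. The 438 kept cells outside this class with at least 1 UMI of Chga and of the epithelial gene Epcam, 94 in library 1 and 344 in library 2, served as the contrast.

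The study mapped lineages in the developing mouse pancreas with Smart-seq2, which reads whole transcripts of cells sorted into plates, and added the droplet libraries as a parallel platform. From the Smart-seq2 cells, sorts of E15.5 pancreas were used to test genes found in the droplets, because the rule that chose the alpha-like cells did not use them. They were 36 Gcg-GFP+ cells from Gcg-P2A-GFP embryos in 2 sets, 39 Ins1-RFP+ cells from Ins1-RFP embryos in 2 sets, and 51 Ngn3-GFPhigh cells from an Ngn3-GFP knock-in strain in 2 sets. A further 37 Ngn3-GFPlow cells (2 sets) and 79 Pdx1-Cre; Rosa-RFP cells (3 sets) entered the same fit. A set is the number that cells of a group share in their titles, and the labels do not say what it stands for. A p-value below reflects how much sets of the same group differ, pooled over the 11 sets of the 5 groups in the fit. That spread may be technical only. The reporters follow the Gcg, Ins1 and Neurog3 genes themselves, so levels of those genes between sorts check the labels only.

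Alpha cells are the islet cells that secrete glucagon, the hormone that makes the liver release glucose when blood sugar falls. They arise from Neurog3-expressing endocrine progenitors of the pancreatic epithelium and are among the earliest hormone cells of the mouse pancreas. Lineage-specific transcription factors then separate the alpha fate from the beta and delta fates. Genes best known from the liver, such as those of transthyretin and the serpin protease inhibitors, are also used by some islet cells.

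The promoters of 3 genes of plasma proteins are shown because their transcripts separated alpha-like cells from other endocrine cells in the results that follow. Each line gives the 150 bases before the gene's start from RefSeq (GRCm38.p6), 5′ to 3′ on the gene's strand, with the letters GTTAAT or, read on the opposite strand, ATTAAC in capitals. GTTAAT is a core of the sequence bound by factors of the HNF1 family, which act in liver, kidney and pancreas. The windows are chr12:103863620-103863769 on the minus strand for Serpina1a, chr12:103738190-103738339 on the minus strand for Serpina1b, and chr3:83049864-83050013 on the minus strand for Fgb.
Serpina1a: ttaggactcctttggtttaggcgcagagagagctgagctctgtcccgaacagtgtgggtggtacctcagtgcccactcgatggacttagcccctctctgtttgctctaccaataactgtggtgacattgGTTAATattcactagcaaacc
Serpina1b: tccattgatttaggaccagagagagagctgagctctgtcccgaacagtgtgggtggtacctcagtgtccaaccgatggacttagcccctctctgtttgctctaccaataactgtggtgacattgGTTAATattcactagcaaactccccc
Fgb: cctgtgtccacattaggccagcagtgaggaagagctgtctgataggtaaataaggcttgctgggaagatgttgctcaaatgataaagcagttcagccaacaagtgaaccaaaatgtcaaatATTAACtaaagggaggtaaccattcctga
The Serpina1a and Serpina1b windows share an unbroken run of 72 bases, and reads of these near-identical genes may have been split between them by the authors' counting. Searched on both strands in the 250 bases before the start, GTTAAT was found in 2113 of 32851 mouse promoters (6.43%), in 6 of 16 promoters of 14 of the 16 genes in the liver-type list described below (37.5%; Apoa2 and Rbp4 have 2 promoters each, and those of Ttr and Trf were not analysed here), and in 1 of 14 promoters of the 15 genes with the highest ratios. Those 6 lay before Afp, Alb, Fga, Fgb, Gc and Serpina1a. Of these genes only Fgb and Serpina1a were among the list members 2-fold higher in alpha-like cells, and Rbp4, also higher, had no match. The motif was chosen after the sequences were seen. A match describes the letters of a window and is not evidence of binding.

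Alpha-like cells made up 1.56% of the kept cells of library 1 (exact 95% interval 1.17 to 2.03%) and 1.42% of those of library 2 (1.15 to 1.73%), intervals that cover counting error only. Their Gcg level ran between 100.5 and 1366 UMIs per 10000 in library 1, with a median of 405, and between 104.5 and 2159 in library 2, with a median of 404. The median alpha-like cell carried the same Gcg level in both libraries although the libraries differed in depth. Just outside the threshold, the nearest barcodes held 99.7 and 98.5 UMIs per 10000, and 9 and 10 alpha-like cells lay between 100 and 200. Mesenchyme-marked cells, which should lack Gcg, held 0.124 and 0.925 UMIs per 10000 of it. Requiring Chga removed 3 and 25 barcodes that met the Gcg threshold, and excluding Ptprc removed none. Epcam, which the contrast required and the alpha-like rule did not, had a UMI in 29 of 53 and 39 of 96 alpha-like cells.

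**Figure D1:**
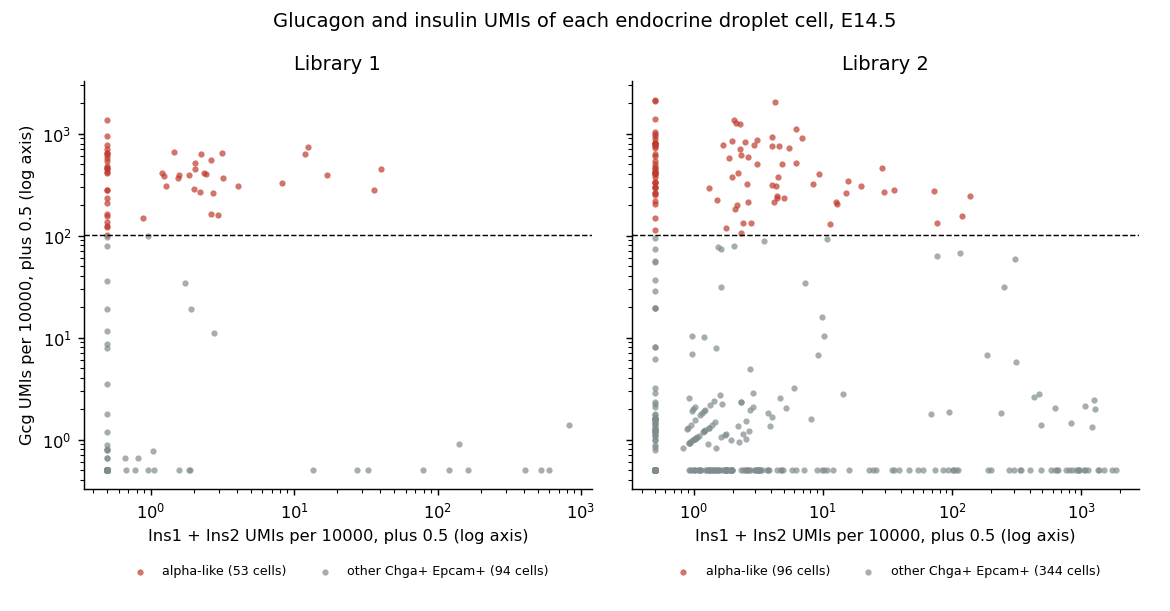
Each point is a droplet cell, with Ins1 plus Ins2 UMIs per 10000 on the horizontal axis and Gcg UMIs per 10000 on the vertical axis (both log axes, 0.5 added), red for alpha-like and grey for other Chga-positive Epcam-positive cells. The dashed line is the Gcg threshold of 100, and most grey cells lie far below it while few lie between 20 and 100 (5 and 17 cells).

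Several features of the libraries bear on the values below. Alpha-like cells had median depths of 10412 and 5601 UMIs, against 17999 and 9224.5 in the other endocrine cells. Their median share of mitochondrial UMIs was 6.32% and 6.50%, against 3.52% and 5.54%, and 14 and 11 alpha-like cells remained under a limit of 5%. The other endocrine cells were a mixture, with 58 and 201 carrying at least 2 markers of trunk and duct, 19 and 151 at least 2 acinar markers, and 7 and 46 holding insulin at the level asked of Gcg. Scrublet, a doublet caller, marked 4 and 189 kept cells, 0 and 3 of them alpha-like, and none was removed from the main values. In library 1 it marked 0.117% of cells, too few to show that it worked there. The libraries shared 37 barcodes, none of them alpha-like. Acinar markers summed to 48.2 and 158 CPM (counts per 1000000 UMIs of a class and library) in alpha-like cells, against 392.5 and 2341 in the other cells, and trunk and duct markers to 171 and 173, against 1708 and 1124. Erythroid transcripts summed to 2123 and 6202 CPM in alpha-like cells, against 1378 and 2054 in the other cells. Mesenchyme markers summed to 224 and 314 CPM in alpha-like cells, against 142 and 223 in the other cells. At least 2 of them had a UMI in 15 of 53 and 20 of 96 alpha-like cells, against 22 of 94 and 116 of 344 other cells. Endothelium markers also summed to more CPM in alpha-like cells in both libraries. The part of these 2 marker lists in the gene differences was not tested. The part of depth, mitochondrial share, erythroid RNA and the mixed contrast in the gene differences was not tested, and the mixed contrast was also replaced by the 34 and 119 other cells with fewer than 2 trunk and duct and fewer than 2 acinar markers, called the marker-poor contrast here.

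Gene levels are UMIs summed over the cells of a class and library, in CPM of all UMIs of that class and library. The alpha-like cells were chosen from these same counts, so ratios to the other cells are descriptions without a test. Of 2876 genes at 50 CPM or more in the higher class of both libraries, 204 were at least 2-fold higher in alpha-like cells in both libraries (7.09%) and 167 at least 2-fold lower (5.81%). The median log2 ratio over all these genes was 0.17 in library 1 and 0.15 in library 2. Against the marker-poor contrast, chosen after seeing the data, 60 genes were higher and 60 lower, of which 44 and 17 were also among the 204 and 167. Most of the genes that set alpha-like cells apart in the first contrast were therefore not 2-fold apart from the marker-poor cells.

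The label held for its other markers. Ttr, which encodes the thyroid hormone and retinol carrier transthyretin, stood at 14657 and 12918 CPM in alpha-like cells and at 1727 and 1423 CPM in the other cells. Irx2, an Iroquois homeobox gene of alpha cells, stood at 224 and 193 CPM in alpha-like cells and at 23.7 and 15.8 CPM in the other cells. Ttr had a UMI in all 53 alpha-like cells of library 1 and in 99.0% of those of library 2, and Irx2 in 84.9% and 66.7%. In the other endocrine cells Ttr had a UMI in 96.8% and 93.0% and Irx2 in 26.6% and 10.8%. Ttr thus set the classes apart by level and hardly by detection. In mesenchyme-, endothelium- or leukocyte-marked cells, with median depths of 8327 and 4230 UMIs, Irx2 had a UMI in 0.439% and 0.499%.

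Alpha-cell transcription factors were the first list. All 11 members reached the level asked for, 8 were at least 2-fold higher in alpha-like cells in both libraries and none was lower, with a median log2 ratio of 1.74 and 1.53. Irx1, Irx2, Pou3f4, Etv1, Isl1 and Smarca1 were among the higher ones. Irx1, the partner of Irx2 on chromosome 13, stood at 185 and 138 CPM in alpha-like cells, against 15.4 and 7.89 CPM in the other cells. Isl1, a LIM homeodomain factor of all islet cells, stood at 714 and 978 CPM, against 214 and 338 CPM. Pou3f4, a POU factor that binds the glucagon promoter, stood at 223 and 141 CPM, against 49.8 and 35.8 CPM. Etv1, an ETS factor, stood at 691 and 319 CPM, against 79.6 and 44.7 CPM. Against the marker-poor contrast 3 of the 11 stayed at 2-fold, namely Irx1 (log2 2.95 and 3.15), Irx2 (2.05 and 2.102) and Etv1 (1.97 and 1.85). There the log2 ratio was 0.66 and 0.51 for Pou3f4 and 0.22 and -0.08 for Isl1. The Iroquois pair and Etv1 thus separated alpha-like cells from both contrasts, whereas Pou3f4 and Isl1 were 2-fold higher against the mixed one only.

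Secreted, transport and surface genes of alpha cells had median log2 ratios of 3.37 and 2.61. Of 7 members at the level asked for, 6 were higher, and 5 stayed at 2-fold against the marker-poor contrast. Tmem27, which encodes collectrin, a membrane protein known in kidney for bringing amino acid transporters to the surface, had the highest ratio of all genes ranked, with 1949 and 2112 CPM in alpha-like cells against 113 and 149.6 CPM in the other cells (17.2-fold and 14.1-fold). Slc38a5, a transporter of glutamine and other neutral amino acids, stood at 4854 and 4268 CPM, against 469 and 369.6 CPM (10.3-fold and 11.55-fold). Slc7a2, a carrier of cationic amino acids, stood at 212 and 179.6 CPM, against 19.6 and 35.2 CPM. Gpx3, a secreted glutathione peroxidase, stood at 1844 and 1904 CPM, against 151 and 312 CPM. The 7 and 46 other cells with insulin at the level asked of Gcg are called insulin-high here. Against them log2 ratios were 3.67 and 2.74 for Tmem27 and 2.45 and 2.06 for Slc38a5. They were 2.69 and 0.52 for Slc7a2 and 2.31 and 0.74 for Gpx3, so these 2 genes were not 2-fold higher there in library 2. Among the 12 amino acid transporters listed, 5 reached the level, and beside Slc38a5, Slc7a2 and Slc7a14, which were higher, Slc38a1 and Slc38a2 were lower. Slc38a1 stood at 6.23 and 8.31 CPM in alpha-like cells, against 77.3 and 70.7 CPM in the other cells.

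**Figure D2:**
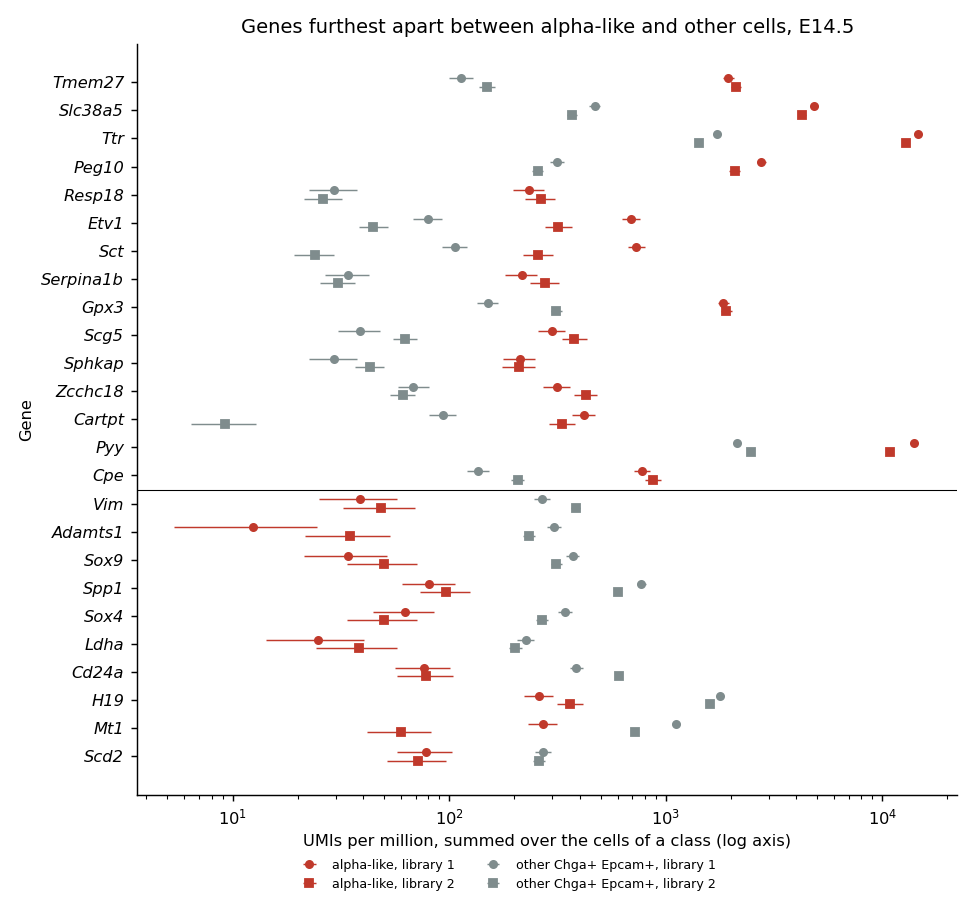
The 15 genes with the highest and, under the line, the 10 with the lowest ratio of alpha-like (red) to other Chga-positive Epcam-positive cells (grey) among genes at 200 CPM or more in the higher class, in CPM of UMIs on a log axis, with circles for library 1, squares for library 2 and exact 95% Poisson intervals. In each gene both red points lie on the same side of both grey points, and the libraries differ most for Cartpt, whose other cells stand at 93.6 and 9.20 CPM.

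Among the remaining genes of the highest ratios were Peg10, an imprinted gene expressed from the paternal allele, with 2767 and 2080.2 CPM in alpha-like cells against 314 and 256 CPM in the other cells. Resp18, which encodes a protein of endocrine granules, stood at 233 and 264 CPM, against 29.3 and 26.3 CPM. Sct, the secretin gene, stood at 731.5 and 258 CPM, against 106 and 23.9 CPM. Both granule and hormone genes were thus among the top 15, which also held Scg5, Sphkap, Zcchc18, Cpe, Pyy and Cartpt. Against insulin-high cells Peg10 (log2 2.52 and 2.29) and Sct (1.48 and 2.38) stayed at 2-fold in both libraries. Resp18 (0.96 and 1.25), Sphkap (1.47 and 0.61), Zcchc18 (0.32 and 1.31), Scg5 (0.87 and 0.42) and Cpe (0.66 and 0.19) did not. In library 2, 1 cell supplied 71.5% of the Cartpt UMIs of alpha-like cells, so that value rests on that cell.

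Transcripts of plasma proteins best known from the liver were a further property of these cells that the rule did not ask for. All 5 members of that list at the level asked for were higher (Ttr, Rbp4, Trf, Fgb and Serpina1a). Of them, 4 stayed at 2-fold against the marker-poor contrast, where Rbp4 had log2 ratios of 1.38 and 0.17. The list member Gc, which did not reach that level in both libraries, went the other way. It stood at 51.1 and 102 CPM in the other cells without insulin at the level asked of Gcg. Against those cells its log2 ratios were -2.45 and -1.94. Fgb, the fibrinogen beta chain gene, stood at 109 and 54.9 CPM in alpha-like cells (70 and 33 UMIs), against 1.86 and 0 CPM in the other cells (4 and 0 UMIs), a ratio of 58.5 in library 1 and, with a floor of 3 UMIs, at least 69.6-fold higher in library 2. Serpina1a stood at 119.8 and 163 CPM, against 11.2 and 7.62 CPM, and Trf, the transferrin gene, at 117 and 58.2 CPM, against 7.45 and 5.00 CPM. Rbp4, the plasma retinol carrier that travels bound to transthyretin, stood at 1749 and 2619 CPM, against 211 and 708 CPM. Afp, the fetal counterpart of albumin, stood at 77.8 and 18.3 CPM, against 4.19 and 3.94 CPM. In the mesenchyme-, endothelium- or leukocyte-marked cells Fgb stood at 0.0442 and 0.0990 CPM. The defining liver gene Alb was at 1.56 and 8.31 CPM in alpha-like cells, and Ahsg, Apob and Apoh were at 0 in both libraries. The 6 liver markers, 5 of them detected and Ahsg at 0, summed to 361 and 261 CPM in alpha-like cells, against 23.3 and 13.7 CPM in the other cells, and their part in the other differences was not tested. At least 2 of the 6 had a UMI in 29 and 21 alpha-like cells, against 5 and 1 other cells. Since Fgb, Afp and Serpina1a are themselves among these markers, the count repeats their levels. Without cells that carry 2 liver markers, Ttr stood at 12356 and 10048 CPM in alpha-like cells, against 1721 and 1429 CPM in the other cells. Then 2 liver-type genes in place of 5 reached the level, both of them higher. Leaving out cells by these markers lowers the markers themselves, and Fgb then stood at 31.01 and 2.37 CPM, Serpina1a at 58.1 and 23.7 CPM and Afp at 15.503 and 0 CPM in alpha-like cells. Serpina1b, not among the markers, had log2 ratios of 1.49 and 1.38 then, and of 2.67 and 3.17 with all cells. Under 5% mitochondrial UMIs, with 14 and 11 alpha-like cells, Fgb stood at 27.5 and 0 CPM.

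Genes of secretory granules and prohormone processing were largely higher against the mixed contrast, in 13 of 18 members at the level asked for, with none lower and median log2 ratios of 1.82 and 1.14. Pcsk2, the convertase that cuts proglucagon to glucagon, stood at 2016 and 971 CPM in alpha-like cells, against 297 and 232 CPM in the other cells. Scg5, which encodes the chaperone of that convertase, stood at 299 and 379 CPM, against 38.6 and 62.8 CPM. Cpe, the carboxypeptidase that trims the cut hormones, stood at 778 and 875 CPM, against 136 and 207 CPM. Against the marker-poor contrast only Pcsk1n and Ptprn of 20 members stayed 2-fold higher, and Chgb and Pcsk1 were 2-fold lower. Chgb, a granin, had 714 and 1139 CPM in alpha-like cells and 1471 and 1059 CPM in the mixed contrast. Pcsk1, the convertase that cuts proinsulin, stood at 21.8 and 14.97 CPM, against 19.6 and 29.4 CPM. Most of the granule genes that were higher against the mixed contrast were therefore not 2-fold higher against the marker-poor one.

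**Figure D3:**
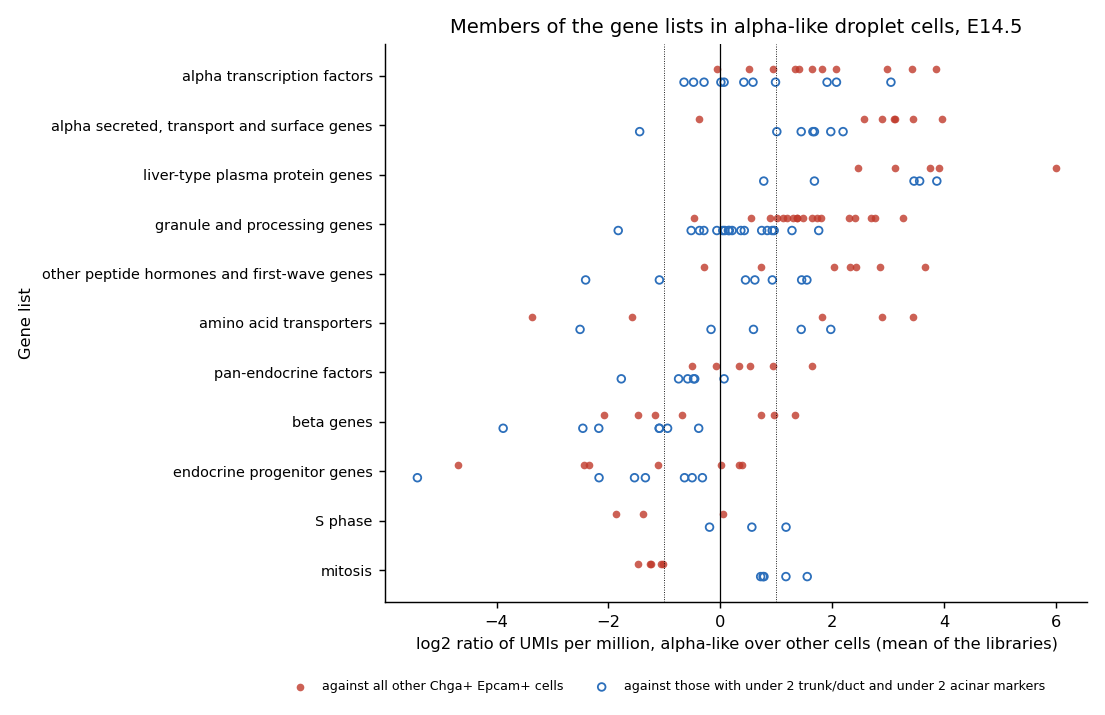
Each point is a list member at the level asked for, placed by its log2 ratio of CPM in alpha-like over other cells (mean of the 2 libraries), red against all other Chga-positive Epcam-positive cells and open blue against the marker-poor ones, with dotted lines at 2-fold. Liver-type and alpha secreted genes stay mostly to the right in both contrasts, granule genes move towards 0, and mitosis and S phase genes lie to the left in red and mostly to the right in blue.

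Hormones other than glucagon accompanied it. Pyy, the gene of peptide YY and a known early partner of glucagon in the mouse pancreas, had a UMI in all 53 and all 96 alpha-like cells, and in 68.1% and 70.6% of the other cells. Its share in mesenchyme-, endothelium- or leukocyte-marked cells was 8.78% and 11.9%. Its level was 13941 and 10805 CPM in alpha-like cells, against 2138 and 2465 CPM in the other cells. The 7 and 46 insulin-high cells among those other cells held Pyy at 13363 and 4068 CPM. Against them its log2 ratios were 0.06 and 1.41, so in library 1 Pyy did not set alpha-like cells apart from insulin-high cells. Thinned to 2500 UMIs per cell, with no alpha-like or other endocrine cell left out, Pyy was still present in all alpha-like cells and in 44.7% and 51.5% of the other cells. Ppy, the pancreatic polypeptide gene, had a UMI in 71.7% and 32.3% of alpha-like cells (37.7% and 21.9% thinned), against 20.2% and 14.8% of the other cells (8.51% and 9.88% thinned) and 0.307% and 0.649% of the non-endocrine cells. Gast, the gastrin gene, had a UMI in 79.2% and 51.04% of alpha-like cells, against 34.04% and 18.9% of the other cells. Iapp, best known from beta cells, had a UMI in 86.8% and 95.8% of alpha-like cells, against 47 of 94 and 217 of 344 other cells. Its level was lower than in the insulin-high cells, which held 14631 and 34504 CPM (log2 ratios of -3.44 and -1.92). Ghrl, the ghrelin gene, had a UMI in 39.6% and 19.8% of alpha-like cells, against 17.02% and 17.7% of the other cells, and its CPM was lower in library 1 (444 against 1062) and higher in library 2 (722 against 450), so no order is read from it. Sst, the somatostatin gene, had a UMI in 0 of 53 alpha-like cells of library 1 and in 2 of 96 of library 2. At a floor of 3 counts, the 0 of library 1 limits the share of cells with a UMI to 5.66%, and does not limit the share of cells that express the gene. Of the 7 members of the hormone list at the level asked for, 5 were higher and none lower, but against the marker-poor contrast none of 9 was higher and 2 were lower. Pyy there had log2 ratios of 0.70 and 0.53.

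Beta-cell and progenitor genes moved in part. Of 7 beta genes at the level asked for, 3 were lower (Pdx1, Nkx6-1 and Nnat) and 1 was higher (Papss2), and against the marker-poor contrast 5 of 9 were lower and none higher. All 20 beta genes listed, Iapp and insulin included, summed to 1816 and 9992 CPM in alpha-like cells, against 1821 and 6252 CPM in the other cells. Pdx1, the pancreas master regulator retained by beta cells, stood at 26.5 and 48.2 CPM in alpha-like cells, against 90.3 and 109 CPM in the other cells. Ins1 and Ins2, whose levels the rule used, had UMIs in 47.2% and 30.2% (Ins1) and 30.2% and 48.96% (Ins2) of alpha-like cells, and in 1.32% and 5.51% (Ins1) and 2.59% and 17.4% (Ins2) of non-endocrine cells. These 2 genes are near-identical, so reads could be split between them. Neurog3, the endocrine progenitor gene, had a UMI in 1 of 53 and 8 of 96 alpha-like cells, against 47.9% and 43.9% of the other cells. Fev, another transcription factor gene, did not show this gap in library 1, with a UMI in 29 of 53 alpha-like and 50 of 94 other cells. In library 2 it had a UMI in 11 of 96 alpha-like and 75 of 344 other cells. Of 7 progenitor genes, 3 were lower (Neurog3, Sox4 and Amotl2), and 5 of 8 against the marker-poor contrast. Of 6 pan-endocrine factors 1 was 2-fold higher (Isl1) and none lower, with median log2 ratios of 0.40 and 0.46. All 12 listed summed to 2493 and 2265 CPM in alpha-like cells, against 1316 and 1430 CPM in the other cells. Neurod1 stood at 285 and 296 CPM in alpha-like cells, against 211 and 192 CPM. Against the marker-poor contrast 0 of 7 pan-endocrine factors was higher and 1 was lower.

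Among the 10 genes of the lowest ratios were markers of other epithelial cells. Sox9, the factor of trunk and duct cells, stood at 34.2 and 49.9 CPM in alpha-like cells, against 372 and 312 CPM in the other cells, and Spp1, the gene of the secreted protein osteopontin, at 80.9 and 96.4 CPM, against 772 and 599 CPM. Both are trunk markers. Against the marker-poor contrast, which was cut on such markers, Sox9 and Spp1 were not lower, with mean log2 ratios of 0.84 and 1.69. Vim, the gene of the intermediate filament vimentin, stood at 38.9 and 48.2 CPM, against 268 and 384 CPM, and kept log2 ratios of -2.26 and -1.17 against the marker-poor contrast. Cd24a, a surface glycoprotein gene of epithelial progenitors, stood at 76.3 and 78.2 CPM, against 387 and 606 CPM, with log2 ratios of -2.02 and -2.51 there. Against insulin-high cells the log2 ratios were -0.17 and -0.95 for Vim and 0.80 and -0.72 for Cd24a. Neither gene was thus 2-fold lower than in insulin-high cells, which in library 1 held 4 UMIs of each. Adamts1, Sox4, Ldha, H19, Mt1 and Scd2 completed the 10. In library 1, 1 cell supplied 59.8% of the Mt1 UMIs and 59.6% of the Spp1 UMIs of alpha-like cells.

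Cycling genes were detected in fewer alpha-like cells. At least 1 of 16 mitosis genes had a UMI in 47.2% of alpha-like cells of library 1 (95% interval 33.3 to 61.4%) and 44.8% of library 2 (34.6 to 55.3%), against 70.2% and 69.8% of the other cells and 71.1% and 62.9% of the non-endocrine cells. Thinned to 2500 UMIs the shares were 26.4% and 28.1%, against 40.4% and 50.6%. Mki67, the proliferation marker, had a UMI in 8 of 53 and 7 of 96 alpha-like cells. Thinned, the Mki67 share was 7.55% and 1.04% in alpha-like cells, against 8.51% and 11.6% in the other cells. Against the marker-poor contrast Mki67 had log2 ratios of 1.05 and 1.29 and Top2a, a DNA topoisomerase of dividing cells, -0.07 and 1.52, so these genes were not lower than in the marker-poor cells in both libraries.

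Within the class, cells above the median Gcg level were set against cells below it, 26 with 26 in library 1 and 48 with 48 in library 2. Median Gcg was 564 and 761 UMIs per 10000 in the upper cells and 271 and 259.9 in the lower cells. Of 580 genes at 200 CPM or more in the higher cells of both libraries, none was 2-fold apart the same way in both. At 50 CPM, added after seeing the data, 9 of 3133 genes were higher and 11 lower in the upper cells. Gpr119, a lipid-sensing receptor gene, was among the 9, with 100.2 and 82.0 CPM in the upper cells, against 43.1 and 36.7 CPM in the lower cells. These levels rest on few UMIs, 26 and 22 in the upper and 15 and 11 in the lower cells. Nnat, an imprinted gene, was among the 11, with 7.71 and 70.8 CPM in the upper cells, against 71.9 and 414 CPM in the lower cells. Its UMIs numbered 2 and 19 in the upper and 25 and 124 in the lower cells. Counting error alone may place genes of so few UMIs past 2-fold, and no test is attached to these 9 and 11. Levels here are CPM of all UMIs other than those of Gcg. Ttr stood at 20096 and 18073 CPM in the upper cells, against 11725 and 9755 CPM in the lower cells. Slc38a5 stood at 6067 and 6467 CPM, against 4234 and 2779 CPM. Isl1 stood at 732 and 1029 CPM in the upper cells, against 748 and 1042 CPM in the lower cells, and did not follow Gcg upward.

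X-linked genes held a larger share of genes higher in alpha-like cells than autosomal genes did. Of 117 X-linked genes at the level asked for, 33 were 2-fold higher in both libraries (28.2%), against 170 of 2757 autosomal genes (6.17%). The median log2 ratio of X-linked genes was 0.63 and 0.50, against 0.16 and 0.14 for autosomal genes. Tmem27 and Slc38a5 lie on the X chromosome, as does Pou3f4, but so do genes on no list, such as Wnk3, with 182 and 334 CPM in alpha-like cells against 21.9 and 32.9 CPM, and Maged1, with 638 and 635 CPM against 258 and 276 CPM. Xist, the RNA of the inactive X, stood at 2960.3 and 856 CPM in alpha-like cells, against 1763 and 868 CPM in the other cells, higher only in library 1. Against the marker-poor contrast 7 of 121 X-linked genes were higher (5.79%), against 53 of 2758 autosomal genes (1.92%), with medians of 0.18 and 0.07 against -0.07 and -0.08. The gap was smaller there and in the same direction. Among 611 X-linked genes in the E15.5 test described next, 8 were called higher in Gcg-GFP+ than in Ins1-RFP+ cells (1.31%), against 55 of 16837 autosomal genes (0.327%). Against Ngn3-GFPhigh cells none of the 611 was called higher and 305 were above 0. The median log2 fold change there was 0 for X-linked and for autosomal genes. Xist stood at 0.115 and 184 CPM in Gcg-GFP+ sets 1 and 2, and was also lower in set 1 than in set 2 of the Ins1-RFP+ cells. The part of this difference between sets in the X-linked shares was not tested. Genes on a chromosome are not independent, and no test is attached to these shares.

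**Figure D4:**
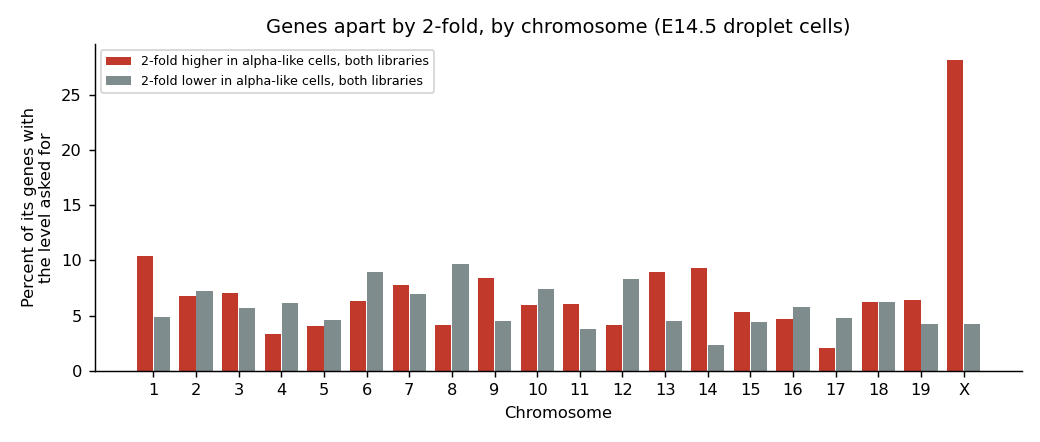
Bars give, for each chromosome, the percent of its genes at the level asked for that were at least 2-fold higher (red) or lower (grey) in alpha-like cells than in other Chga-positive Epcam-positive cells in both libraries. The X chromosome stands at 28.2% higher genes, against 6.17% over all autosomes.

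Independent cells of E15.5 gave tests. In the Gcg-GFP+ sort Gcg stood at 52360 and 57359 CPM of the reads of a set in the 2 sets, against 12.2 and 18.2 in the Ins1-RFP+ sets and 867 and 10638 in the Ngn3-GFPhigh sets, and 15 of 16 and 18 of 20 Gcg-GFP+ cells met a droplet-like gate (Gcg at 1% of reads and above insulin, with Chga and without Ptprc). Over 17595 genes, edgeR's quasi-likelihood test with Benjamini-Hochberg adjustment called 63 higher in Gcg-GFP+ than in Ins1-RFP+ cells (0.358%) and 59 lower (0.335%). Against Ngn3-GFPhigh cells, which still hold 1 and 6 cells that meet the gate, it called 0 higher (0%; 748 at an unadjusted p under 0.05, 280 by DESeq2, 39 by limma) and 5 lower (0.0284%). Both comparisons share the Gcg-GFP+ sets. Even Gcg, which the sort selects, had a log2 fold change of 11.66 ± 3.39 (SE) and an adjusted p of 0.192 by edgeR against Ins1-RFP+ cells, so a gene that missed the threshold is not thereby shown to be alike. Leaving out a set moved the count against Ins1-RFP+ cells to 4 higher and 3 lower without Ins1-RFP+ set 1 (10 cells), to 19 and 10 and to 18 and 16 without Gcg-GFP+ set 1 or 2, and to 22 and 20 and to 24 and 21 without Ngn3-GFPhigh set 1 or 2. Without Ins1-RFP+ set 2 it was 45 and 32, and without an Ngn3-GFPlow set or Pdx1-Cre set 3 the higher count was 36 to 40.

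Of the 204 genes higher in droplet alpha-like cells, 203 were tested, and 9 were higher in Gcg-GFP+ than in Ins1-RFP+ cells (4.43%, against 0.358% of all genes), 1 was lower, and DESeq2 called 40 higher. Their median log2 fold change was 0.58, against 0 over all genes, and 148 of 203 were above 0. Against Ngn3-GFPhigh cells none was called higher by edgeR, 40 were at an unadjusted p under 0.05 and 23 were called by DESeq2, while 170 of 203 were above 0 with a median of 0.74. For the 44 genes that were higher in both droplet contrasts, the medians were 2.50 against Ins1-RFP+ and 1.90 against Ngn3-GFPhigh cells, with 41 and 44 of 44 above 0 and 3 and 0 called higher. Most of the droplet-higher genes were thus above 0 in the E15.5 sorts, and few of them passed the test. The 167 droplet-lower genes did not lean lower against Ins1-RFP+ cells, with 6 called lower (3.59%), 5 called higher (2.99%), 99 above 0 and a median of 0.25. The 4.43% of droplet-higher genes called higher thus stands beside 2.99% of droplet-lower genes called higher. Droplet genes had to reach 50 CPM in the droplets, and the share over all genes has no such limit. Against Ngn3-GFPhigh cells 2 of the 167 droplet-lower genes were called lower, 51 were above 0 and the median was -0.60.

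The 9 called genes were Ttr, Resp18, Serpina1a, Serpina1b, Ctsl, Ctsz, Slc25a5, Ftsj1 and Ndn. Ttr stood at 7758 and 10325 CPM in Gcg-GFP+ sets, against 686 and 803 in Ins1-RFP+ sets and 1786 and 2130.3 in Ngn3-GFPhigh sets, with a log2 fold change over Ins1-RFP+ cells of 3.46 ± 0.53 (edgeR adjusted p = 0.0281). Resp18 stood at 309 and 432, against 43.6 and 40.7, with 2.99 ± 0.48 (edgeR adjusted p = 0.0402). Among these 9 genes the gap was widest for the serpin genes. Serpina1b stood at 130.1 and 342 in Gcg-GFP+ sets, against 0.321 and 0.7005 in Ins1-RFP+ sets and 8.91 and 23.7 in Ngn3-GFPhigh sets, with 8.57 ± 0.98 over Ins1-RFP+ cells (edgeR adjusted p = 0.0160). Serpina1a stood at 46.1 and 75.3, against 0.107 and 0.0808, with 9.17 ± 1.23 (edgeR adjusted p = 0.0200). Ctsl and Ctsz encode lysosomal cathepsins, and Ctsl stood at 913 and 1026, against 144 and 236, with 2.19 ± 0.27 (edgeR adjusted p = 0.0160). Slc25a5, the carrier of ADP and ATP across the inner mitochondrial membrane, and Ftsj1, a transfer RNA methyltransferase, are both X-linked. With each of the 11 sets of the fit left out in turn, Serpina1b kept its call in 10 fits, Ctsl in 9, Serpina1a in 7, Ttr, Ctsz and Slc25a5 in 5, Resp18 and Ftsj1 in 4, and Ndn in 1. Papss2, which makes the donor for sulfation, was the droplet-higher gene called lower, at 278 and 317 in Gcg-GFP+ sets against 1095 and 1043 in Ins1-RFP+ sets.

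**Figure D5:**
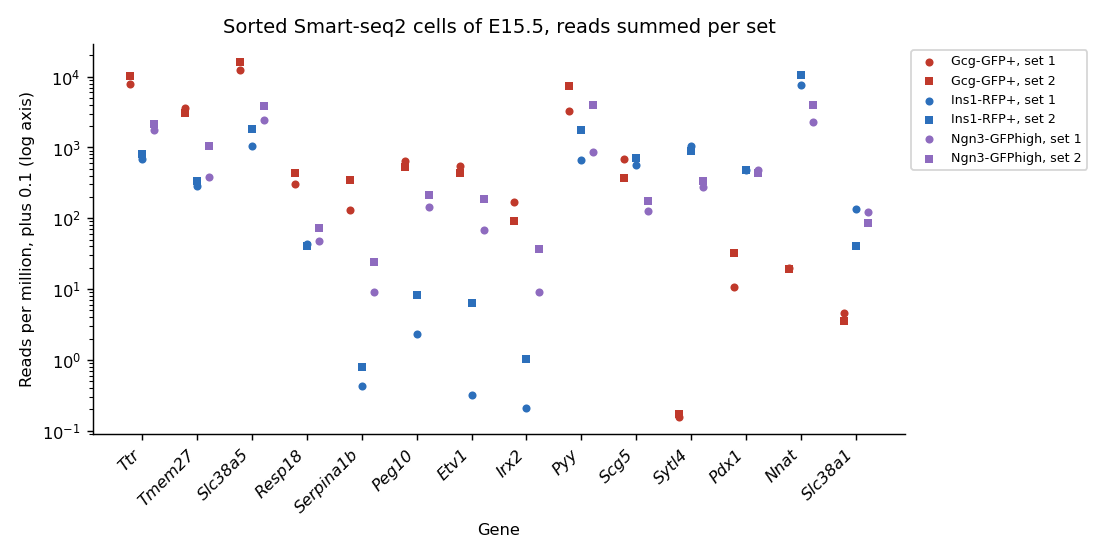
CPM of reads (0.1 added, log axis) summed over each set of sorted Smart-seq2 cells of E15.5, in red for Gcg-GFP+, blue for Ins1-RFP+ and purple for Ngn3-GFPhigh cells, with circles for set 1 and squares for set 2. Ttr, Resp18 and Serpina1b were called higher and Sytl4, Pdx1, Nnat and Slc38a1 lower in Gcg-GFP+ than in Ins1-RFP+ cells, and Scg5 overlaps between the 2 sorts.

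Few of the transcription factors and surface genes of the droplet lists passed the test between the sorts. Irx2 stood at 169.9 and 90.5 CPM in Gcg-GFP+ sets, against 0.107 and 0.916 in Ins1-RFP+ sets and 9.01 and 36.7 in Ngn3-GFPhigh sets, with 7.60 ± 2.31 over Ins1-RFP+ cells (edgeR adjusted p = 0.211). Irx2 had a read in 35 of 36 Gcg-GFP+ cells and in 3 of 39 Ins1-RFP+ cells. Tmem27 stood at 3665 and 3054, against 286 and 336, with 3.27 ± 0.78 (edgeR adjusted p = 0.115, DESeq2 2.71e-05). Peg10 stood at 651 and 537, against 2.25 and 8.03, with 6.63 ± 1.27 (edgeR adjusted p = 0.0746). None of the 11 alpha factors was called by edgeR in either comparison, 5 were at an unadjusted p under 0.05 against Ins1-RFP+ cells (DESeq2 called 3), and 9 of 11 were above 0. Against Ngn3-GFPhigh cells none of the 11 was at an unadjusted p under 0.05 or called by DESeq2, and 8 were above 0 with a median log2 fold change of 0.51. Of 10 secreted, transport and surface genes, edgeR called 1 higher against Ins1-RFP+ and 0 against Ngn3-GFPhigh cells (DESeq2 5 and 4), and 5 were higher at an unadjusted p under 0.05 in each comparison. Fgb stood at 43.8 and 71.4 in Gcg-GFP+ sets and had no read in either Ins1-RFP+ set, but did not pass (edgeR adjusted p = 0.167). Of 13 liver-type genes tested, 2 were higher, 9 were higher at an unadjusted p under 0.05 and 12 were above 0, while Alb stood at 6.87 and 2.63 in Gcg-GFP+ sets.

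Beta genes were low in the Gcg-GFP+ sort. Of 18 beta genes other than insulin, 6 were lower in Gcg-GFP+ than in Ins1-RFP+ cells (33.3%, against 0.335% of all genes) and none of the 18 was above 0. Pdx1 stood at 10.6 and 32.7 CPM in Gcg-GFP+ sets, against 475 and 488 in Ins1-RFP+ sets and 485 and 432 in Ngn3-GFPhigh sets. It fell by 4.59 ± 0.52 on the log2 scale against Ins1-RFP+ cells (edgeR adjusted p = 0.0160) and by 4.39 ± 0.51 against Ngn3-GFPhigh cells (edgeR adjusted p = 0.0420). Sytl4, which encodes granuphilin, a protein that docks insulin granules, stood at 0.0577 and 0.0711 in Gcg-GFP+ sets, against 1055 and 887 in Ins1-RFP+ sets and 278 and 332 in Ngn3-GFPhigh sets, and was lower in both comparisons (edgeR adjusted p = 0.0160 and 0.0420). Nnat, an imprinted gene of the secretory pathway, stood at 20.03 and 19.2, against 7688 and 10392 (edgeR adjusted p = 0.0200). Slc38a1, the transporter that was also low in droplet alpha-like cells, stood at 4.56 and 3.48, against 135 and 40.6 in Ins1-RFP+ sets and 124 and 86.7 in Ngn3-GFPhigh sets (edgeR adjusted p = 0.0160 and 0.0420). Adra2a, Gng12 and Papss2 completed the 6. Pcsk1, the proinsulin convertase, was also lower, at 195 and 108 against 813 and 845 (edgeR adjusted p = 0.0364). With each set left out in turn, the calls against Ins1-RFP+ cells were kept in 10 of 11 fits for Pdx1, 9 for Slc38a1, 8 for Sytl4 and Nnat, and 3 for Pcsk1. Those of Pdx1, Sytl4 and Slc38a1 against Ngn3-GFPhigh cells were kept in 4 of 11.

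Cell cycle genes at E15.5 differed between the 2 Gcg-GFP+ sets, and 14 of 14 S phase and 14 of 16 mitosis genes were higher in set 1 than in set 2. Mcm6, a helicase subunit of DNA replication, was called higher in Gcg-GFP+ than in Ins1-RFP+ cells with 120.3 and 27.7 CPM, against 3.53 and 4.36 (edgeR adjusted p = 0.0281). All 14 S phase genes were above 0 in that comparison, against a median of 0 over all genes. Of them, 1 was called higher (7.14%, against 0.358% of all genes). Mcm3 stood at 50.2 and 6.18 in the Gcg-GFP+ sets and Top2a at 66.6 and 0.249.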

How the data were processed

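The deposited droplet tables hold counts of UMIs per gene and barcode, made by the authors with Cell Ranger 2.0.2 per the submitters' processing notes. The deposited Smart-seq2 table holds read counts per gene and cell. The counter named is HTSeq 0.6.0, after alignment to mm10 by TopHat2 2.1.0 and Bowtie2, per the submitters' processing notes. Whether counting used strand is not given in the sources used here. For Smart-seq2, 580 cells were used, 1615 columns were not used here, and 92 rows of ERCC spike-ins were left out.

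Droplet UMIs were summed per class and library and divided by the class total. A gene was compared at 50 CPM or more in the higher class of both libraries and counted at 2-fold in both. Named genes were the 15 highest and 10 lowest ratios at 200 CPM, ranked by the less extreme library, without the rule's genes and mitochondrial genes, and members of gene lists. The members, lists and tests were chosen with earlier results of these data known. Non-endocrine cells carried at least 3 markers of mesenchyme, endothelium or leukocytes. Intervals and floors cover counting error only. Doublets were called with Scrublet in scanpy 1.11.5 and kept. Some list members are not reported here.

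Smart-seq2 reads were summed per set and tested with edgeR 4.0.16 (quasi-likelihood, TMM, 5 groups and 11 sets in 1 fit, R 4.3.3) with Benjamini-Hochberg adjustment at 0.05. Set totals ran between 6929956 and 37117826 counts. DESeq2 1.42.0, limma 3.58.1 on log2(mean CPM + 1), filters, other contrasts and left-out sets were the alternatives. The fits were tested on simulated data. Promoters were read from RefSeq.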

Additional observations from a re-analysis of the deposited data

How the results depend on the processing

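Alpha-like cells numbered 14 and 11 at a limit of 5% mitochondrial UMIs, 29 and 39 with Epcam asked for, and 28 and 61 without cells carrying markers of another class. Genes at 2-fold, higher and lower, numbered 78 and 97 against insulin-high cells alone, 71 and 96 without cells carrying markers of another class, 135 and 107 thinned to 2500 UMIs, 57 and 51 at 4-fold, and 47 and 41 at 200 CPM. Chosen after seeing the data, the marker-poor contrast gave 60 and 60, and 5% mitochondrial UMIs gave 98 lower genes. With 1 library alone the counts were 330 to 524 higher and 281 to 295 lower. The share of cells with a mitosis gene was 26.4% and 28.1% thinned and 15.1% and 14.6% at 2 UMIs. Comparing only the cells with the highest and the lowest Gcg, in 3 equal parts, gave 4 higher genes and 1 lower. At 50 CPM in place of 200, added after seeing the data, the cells above and below their median Gcg gave 9 and 11. The mean log2 ratio turned against insulin-high cells for Ldha (0.36), Cd24a (0.043), H19 (0.25) and Mt1 (2.83). It turned against marker-poor cells for Adamts1 (0.028), Sox9 (0.84), Spp1 (1.69), Ldha (0.25), Mt1 (2.80) and Scd2 (0.32).

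At E15.5 the counts below are all genes higher and lower, then droplet-higher genes called higher and droplet-lower genes called lower. Against Ins1-RFP+ cells DESeq2 gave 642, 504, 40 and 21, and limma 238, 172, 24 and 10. No filter gave 14 droplet-higher genes and a fit of the 2 groups alone 22. Against Ngn3-GFPhigh cells DESeq2 gave 280, 334, 23 and 29, limma 39, 51, 5 and 11, no filter 11, 29, 3 and 8, and the 2 groups alone 2, 14, 1 and 4. Only cells that met the gate gave 2 higher, 8 lower and 4 droplet-lower genes. Leaving out each set gave 4 to 64, 3 to 68, 0 to 13 and 1 to 7 against Ins1-RFP+ cells, and 0 to 2, 1 to 8, 0 to 1 and 0 to 3 against Ngn3-GFPhigh cells. Set numbers as a replicate block gave 14, 21, 3 and 3 against Ins1-RFP+ cells, and 0 higher, 1 lower and 0 droplet-lower against Ngn3-GFPhigh cells. The labels do not say that the numbers pair sets, and deviations of same-numbered sets correlated at 0.0226 and 0.0276 over genes.

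The log2 fold change of named genes turned in 20 fits. With each set left out in turn, the genes that turned ran over the following ranges. Against Ins1-RFP+ cells Ldha ran between -6.43 and 3.92 (0.78 without Gcg-GFP+ set 1), Vim between -0.61 and 2.03, and Mt1 between -1.80 and 3.54. Against Ngn3-GFPhigh cells Ldha ran between -6.74 and 0.48, Cartpt between -0.61 and 4.00, Scd2 between -0.46 and 0.59, Mcm6 between -0.60 and 1.40, Mt1 between -3.62 and 1.86, Adamts1 between -1.27 and 5.59, Spp1 between -1.76 and 0.56, and Clps between -0.81 and 0.43. Scd2 was at 0.015 with DESeq2 size factors and with DESeq2 and at 0.064 with limma, Mt1 at -0.22 with limma, and Cartpt at -0.015 with gated cells, all against Ngn3-GFPhigh cells. The causes were not tested. Of the other fits of named genes, 1498 kept their side of the threshold, 90 gained and 192 lost a call. The droplet comparison covers genes at 50 CPM or more, a chosen limit.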

Other observations

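At E14.5, 22 Smart-seq2 cells met the same gate, 12 of 108 Ngn3-GFPhigh, 2 of 104 Ngn3-GFPlow and 8 Pdx1-Cre; Rosa-RFP cells. They were chosen by Gcg, and their values against 194 other cells with Chga and Epcam reads are a description without a test. Ttr stood at 6606 CPM of reads in the gated cells and 1496 in the other cells, Irx2 at 172 and 21.4, and Tmem27 at 2800.0 and 522. Fgb stood at 27.6 in the gated cells and 0.798 in the other cells, with a read in 8 of 22 and 26 of 194 cells. Pdx1 stood at 67.8 in the gated cells and 272 in the other cells, and Sox9 at 20.3 and 297. These genes stood on the same side as in the droplet cells.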
